A study of Mus musculus with 6 samples.

Results

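Heat shock proteins and cochaperones are described here in RNA of spinal cord microglia, the macrophages that reside in brain and spinal cord. The rule lists genes by name and uses no measured value, although the list was drawn up with earlier results of these data known: 39 gene symbols were looked up among the 55401 genes of a count table, and all 39 were found and had enough counts to be tested, as had 16248 genes in all. They were sorted here into 12 inducible and 15 constitutive cytosolic chaperones and cochaperones. The others were 6 of the endoplasmic reticulum, 4 of mitochondria and 2 heat shock transcription factors. The rule names the kinds of chaperone to compare but does not say which gene belongs to which. The mice were 7 months old and untreated. One group was non-transgenic (NTg, strain C57BL/6), and the other was the double mutant ATXN2-Q33;TDP-43, which the labels give as a heterozygous knock-in of hATXN2-Q33 with hTDP-43 (h stands for human; ATXN2 carries a run of 33 glutamines). The sources used here name no promoter or cell type for the human TDP-43. Cells were collected with beads coated against CD11b, an integrin of myeloid cells, and each library is a pool from 3 spinal cords, with 3 libraries from 9 animals in each group. The NTg replicates are numbered 7, 9 and 11, those of ATXN2-Q33;TDP-43 8, 10 and 12.

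Chaperones bind unfolded stretches of other proteins and let them fold, refold or go to degradation. The HSP70 proteins do this in cycles of ATP hydrolysis, started by J-domain cochaperones (the DNAJ proteins) and ended by nucleotide exchange factors such as the HSP110 and BAG proteins, and HSP90 takes over clients at a later stage. Under heat or other protein-damaging stress the transcription factor HSF1 binds heat shock elements, inverted repeats of the letters GAA, and switches on the inducible genes. The endoplasmic reticulum and mitochondria have HSP70 and HSP90 relatives of their own. Each compartment also has a stress response of its own, which need not act alone on these genes. ATXN2 and TDP-43 are RNA-binding proteins, and TDP-43 forms protein aggregates in amyotrophic lateral sclerosis. The comparison asks whether chaperone RNA in microglia differs between the genotypes.

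Library totals ran from 12553570 to 22854628 counts, and the 39 genes took 1.09% to 1.52% of them. Markers of microglia were abundant in every library, with Csf1r at 3493 to 5014, Cx3cr1 at 1492 to 2099, P2ry12 at 600 to 834 and Tmem119 at 373 to 627 CPM (counts scaled to a common library size after TMM, a correction for composition). RNA of other cells was also present and unevenly so. Oligodendrocyte markers summed to 1627 CPM in NTg replicate 9 and 1112 CPM in ATXN2-Q33;TDP-43 replicate 10, against 166 to 442 CPM in the other 4 libraries. Neutrophil markers, of cells that also carry CD11b, summed to 584, 148 and 364 CPM over NTg replicates 7, 9 and 11 but 1515, 962 and 49.5 CPM over mutant replicates 8, 10 and 12 (6 of 6 with a log2 fold change above 0, median 1.14, none at an unadjusted p under 0.05). Monocyte markers summed to 14.5 to 33.8 CPM in NTg and 12.2 to 81.5 CPM in the mutants (5 of 5 above 0, median 1.05, 1 at an unadjusted p under 0.05). The part of these cells in the chaperone values was not tested. In the headers the alignment files of NTg replicates 7 and 9, and of no mutant library, are named as combined, which the sources used here do not explain; what the name stands for and the genotype cannot be fully told apart. Mouse Atxn2 and Tardbp, the genes of the genotype, stood at 0.09 (SE 0.08) and 0.05 (SE 0.09) on the log2 scale, mutant minus NTg. The table counts mouse genes only, and these values do not check the genotype labels. In bulk RNA, fewer cells of a type and less RNA per cell cannot be told apart.

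Promoter stretches are printed first because they show the letters searched for in the inducible and the endoplasmic reticulum genes. RefSeq promoter windows on GRCm38.p6 (250 bases before to 50 after a gene's start) were matched for 32 of the 39 genes. Each sequence is on the gene's own strand, 5′ to 3′. In the first 6, capitals mark the inverted GAA and TTC units of a heat shock element. The first 3 are the 150 bases before the start of Hspa1a (chr17:34972157-34972306, minus strand), Hspa1b (chr17:34959239-34959388, minus strand) and Hspb1 (chr5:135887769-135887918, plus strand). The other 3 are short stretches around an element of Hsph1 (a single pair; chr5:149636355-149636376, minus strand), Chordc1 (chr9:18292260-18292288, plus strand) and Hspe1 (chr1:55088054-55088081, plus strand).
Hspa1a: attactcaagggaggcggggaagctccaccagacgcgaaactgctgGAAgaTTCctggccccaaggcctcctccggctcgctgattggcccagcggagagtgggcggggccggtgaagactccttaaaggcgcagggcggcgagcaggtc
Hspa1b: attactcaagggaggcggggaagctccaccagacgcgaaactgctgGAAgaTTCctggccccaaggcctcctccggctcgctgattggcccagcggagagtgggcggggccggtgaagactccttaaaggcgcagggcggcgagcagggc
Hspb1: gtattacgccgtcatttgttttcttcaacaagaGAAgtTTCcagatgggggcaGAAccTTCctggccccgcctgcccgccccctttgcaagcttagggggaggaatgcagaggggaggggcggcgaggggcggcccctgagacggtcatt
Hsph1: agaatctTTCtcGAAggctcga
Chordc1: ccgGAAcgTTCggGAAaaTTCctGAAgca
Hspe1: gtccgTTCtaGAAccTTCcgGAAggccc
The 150 bases of Hspa1a and Hspa1b were identical at 149 positions (99.3%), with the element at -104 to -97 in both. The Hsph1, Chordc1 and Hspe1 stretches, and that of Hspa5 below, lie within exons of GENCODE release M21, of the gene itself or of another gene. Chordc1 and Hspe1 hold longer runs of the repeat than the single pairs of Hspa1a and Hspa1b.

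The next 3 stretches, of Hspa5 (chr2:34772020-34772048, plus strand), Hsp90b1 (chr10:86705528-86705556, minus strand) and Dnajc3 (chr14:118937822-118937850, plus strand), carry in capitals both ends of the endoplasmic reticulum stress element, which answers to the unfolded protein response. In Hsp90b1 the printed copy lies in reverse complement, and a further copy lies in the forward sense at -212 to -194.
Hspa5: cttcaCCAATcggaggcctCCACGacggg
Hsp90b1: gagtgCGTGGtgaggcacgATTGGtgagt
Dnajc3: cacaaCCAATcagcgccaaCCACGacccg

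Counted over both strands, GAANNTTC or TTCNNGAA was found in 10 of the 14 windows of inducible genes (71.4%; some genes have more than 1 window) and in 9 of the 10 genes matched there. The share was 4 of 19 windows (21.1%) for the constitutive genes, 0 of 5 for the endoplasmic reticulum and 2 of 4 for mitochondria. Of all 32851 windows of the table, 15.1% held it. The 3-unit heat shock element, with 1 more GAA or TTC unit at the same spacing and so overlapping the shorter letters, was in 0.603% of all windows, and among the 39 genes in those of Chordc1, Hsph1, Dnajb6, Hspd1 and Hspe1. The endoplasmic reticulum stress element, searched on both strands, was in 0.119% of all windows and in those of Hspa5, Hsp90b1 and Dnajc3, 3 of the 5 windows of endoplasmic reticulum genes. Genes were put in the inducible class for their known heat response, so the share there is no independent result, and a match is a run of letters, not a bound site.

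Per length of exon, 7 genes stood above all others in every library. They were Hsp90ab1 (560 CPM per kilobase, mean of 6 libraries), Hspa8 (507), Hsp90aa1 (425), Hspa1a (389), Hspa5 (362), Hspa1b (346) and Hsp90b1 (251). That is, the cytosolic HSP70 and HSP90 proteins, constitutive and inducible, and their endoplasmic reticulum counterparts BiP (Hspa5) and GRP94 (Hsp90b1). The lowest value among these 7 in any library was 200.6 CPM per kilobase, and the next gene, Dnajb1, ran from 57.1 to 112. Neighbours within the 7 overlapped in their ranges. Below them neighbouring ranges overlapped down to Dnajb11 (13.8 CPM per kilobase), whose range lay above that of Dnajb2 (9.31). Mitochondrial chaperones lay in the middle, from Hspa9 at 48.5 down to Trap1 at 14.5. The lowest levels were those of Hsf2 (1.75), Hspb8 (1.68) and Hspa4l (1.43), and Hsf1 stood at 6.58 CPM per kilobase. Reads with several alignments were not counted, so genes that share sequence with others may stand too low. Other genes hold, on either strand, 66.3% of the 50-base windows of Hspa1a, 62.3% for Hspa1b, 47.5% for Hsp90aa1 and 39.4% for Hspa8. The share was 9.75% for Hsp90b1, 3.44% for Hsp90ab1 and 0% for Hspa5. Levels were not corrected for this, which leaves the order within the 7 uncertain.

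**Figure D1:**
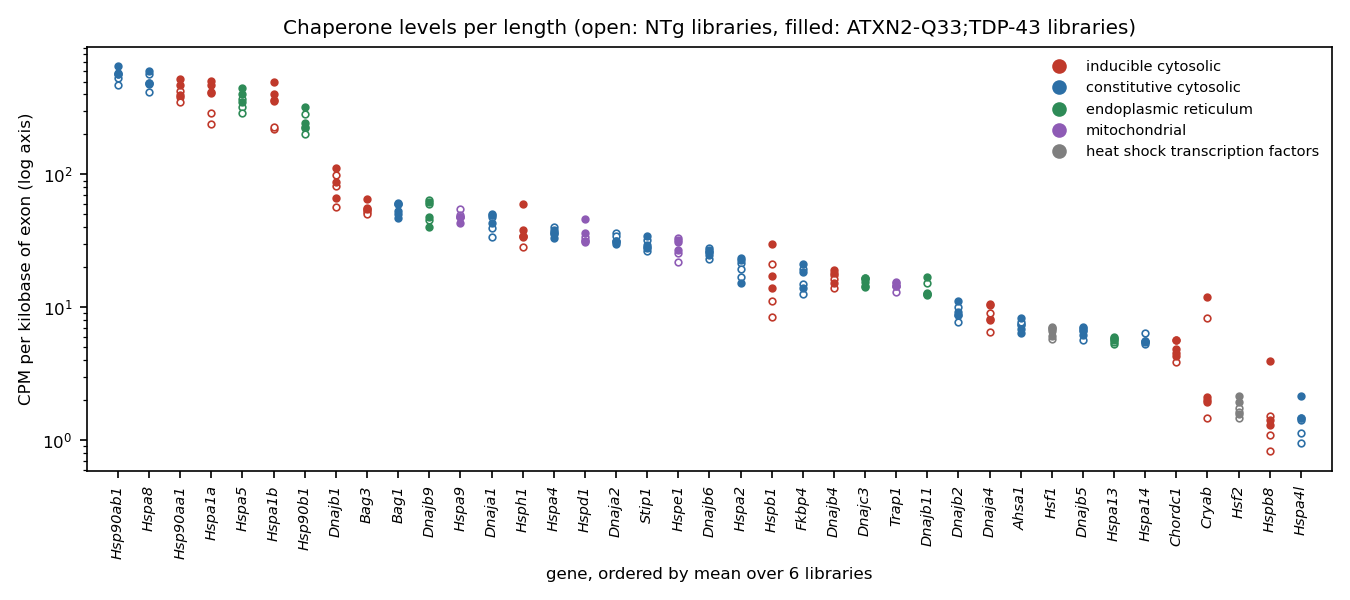
CPM per kilobase of exon (log axis) of the 39 genes in 6 libraries, in the order of their mean; open points are NTg and filled points ATXN2-Q33;TDP-43 libraries, coloured by class. Hsp90ab1 to Hsp90b1 lie above 200 CPM per kilobase in every library and are separated from Dnajb1 and the genes to its right.

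Between the genotypes, no chaperone gene passed the threshold of an edgeR quasi-likelihood test (adjusted p under 0.05 over all genes tested), where 0% of all genes tested passed, and the smallest adjusted p among the 39 was 0.9996. At an unadjusted p under 0.05 stood 4 of the 39, all with higher values in the mutants: Hspa1b, Hspa1a, Hspa4l and Hspa5. Of all genes tested 2.26% did so, 1.4% with higher and 0.862% with lower values in the mutants. DESeq2 put 6 of the 39 (2.45% of all genes) at an unadjusted p under 0.05 and limma voom 4 (1.79% of all genes). With 1 library left out in turn, the number of the 39 at an unadjusted edgeR p under 0.05 changed. It was 0, 3 and 8 without NTg replicates 7, 9 and 11. Without ATXN2-Q33;TDP-43 replicates 8, 10 and 12 it was 9, 1 and 5. The share of all genes is not given for these fits, so these numbers cannot be set against it. After adjustment DESeq2 called none of the 39, against 0.0431% of all genes, and limma voom none, against 0%. The groups did not overlap, with every mutant library above every NTg library, in 5 of the 39 genes (Hspa1a, Hspa1b, Hsph1, Bag3 and Hspa4l), against 3.27% of all genes and 6.85% in either direction. None of the 39 had every mutant library below every NTg library, against 3.58% of all genes. The log2 fold change was above 0 in 32 of 39, against 52% of all genes, and the median was 0.14 against 0.01 over all genes.

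The classes differed in these counts. All 12 inducible genes had a log2 fold change above 0, with a median of 0.36. Among constitutive cytosolic genes 10 of 15 did (median 0.09), among endoplasmic reticulum genes 5 of 6 (median 0.06), among mitochondrial genes 3 of 4 (median 0.09), and both transcription factors did (median 0.12). These counts and medians are descriptions without a test, and they depend on which genes were put in each class, a choice made here. Within the inducible class the low genes Cryab (0.43), Hspb1 (0.57) and Hspb8 (0.94) all lay above its median. They were highest in the same libraries as markers of other cells, as given below. The class median without them was not computed. The constitutive class may hold genes that also respond to heat. Heat shock element letters also lie in promoter windows of Dnaja1, Dnajb6, Fkbp4, Hspd1 and Hspe1, which were put in other classes. With the combined alignments as a covariate, which in effect sets NTg replicate 11 against the 3 mutant libraries, the inducible median was 0.19 with 10 of 12 above 0, the endoplasmic reticulum median -0.07 with 2 of 6 above 0, and the median of all 39 was 0.00. With NTg replicate 9 and ATXN2-Q33;TDP-43 replicate 10 left out, the inducible median was 0.17 with 12 of 12 above 0.

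**Figure D2:**
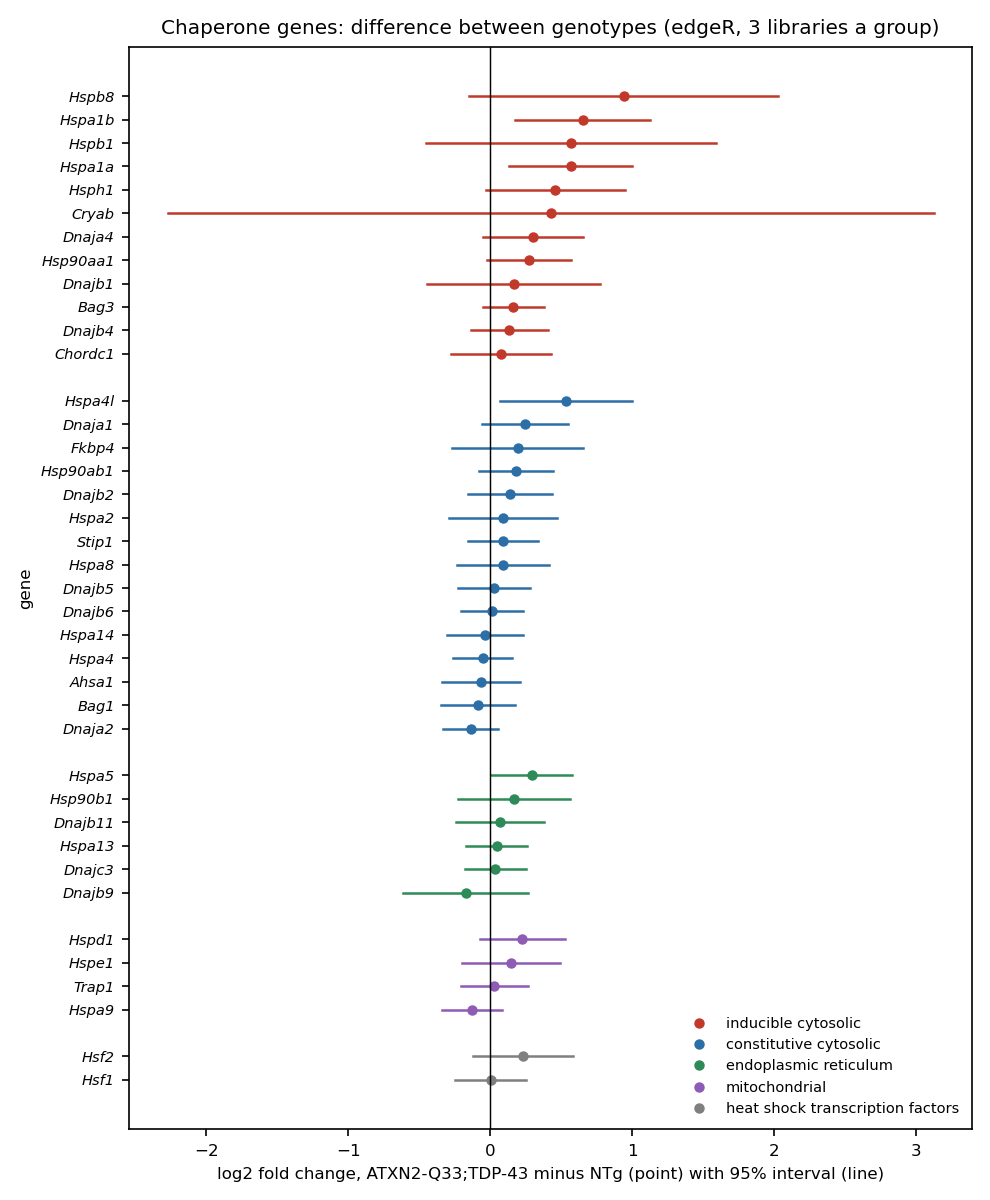
Log2 fold change of each chaperone gene, ATXN2-Q33;TDP-43 minus NTg (point, edgeR, 3 libraries a group), with its 95% interval (line), grouped by class. All 12 inducible genes lie right of 0, and the interval excludes 0 in Hspa1a, Hspa1b, Hspa4l and Hspa5.

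The inducible HSP70 pair had the smallest p-values of the 39. Hspa1a (ENSMUSG00000091971, mm10 chromosome 17, 34969190 to 34972156, minus strand) codes for the stress-induced HSP70 that refolds damaged proteins. It measured 862, 709 and 1219 CPM in NTg pools (here and below in the order 7, 9, 11) against 1243, 1494 and 1394 CPM in mutant pools (in the order 8, 10, 12). Every mutant library was above every NTg library, but NTg replicate 11 came within a small distance of the lowest mutant. The means were 930 ± 262 and 1377 ± 127 CPM (SD, n = 3 each), which gave a log2 fold change of 0.57 (SE 0.19, 95% interval from 0.13 to 1.002, edgeR unadjusted p = 0.0170, adjusted p = 0.9996). The exact two-sided permutation p was 0.1, the smallest that 3 against 3 libraries allow.

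Hspa1b (ENSMUSG00000090877, mm10 chromosome 17, 34956436 to 34959238, minus strand), the neighbouring copy that codes for nearly the same protein, followed the same pattern. Its values were 621, 643 and 1002 CPM in NTg pools against 1023, 1395 and 1137 CPM in mutant pools. Again the groups did not overlap and NTg replicate 11 was the highest of its group. The means were 755 ± 214 and 1185 ± 191 CPM (SD, n = 3 each), which gave a log2 fold change of 0.65 (SE 0.21, 95% interval from 0.17 to 1.13, edgeR unadjusted p = 0.0139, adjusted p = 0.9996). The 2 genes share much of their transcript. Of the 50-base windows of Hspa1a 58.8% also occur in Hspa1b (66.3% in any other gene). Of those of Hspa1b 62.3% occur in Hspa1a, and reads with several alignments were not counted. Their split is therefore uncertain, and they are not independent of each other. Summed into 1 gene they gave 1482, 1351 and 2221 CPM in NTg pools against 2266, 2889 and 2531 CPM in mutant pools, a log2 fold change of 0.60 (SE 0.19, 95% interval from 0.17 to 1.04, edgeR adjusted p = 0.9995). Given the combined alignments as a covariate, Hspa1a stood at a log2 fold change of 0.18 and Hspa1b at 0.24, and without NTg replicate 9 and ATXN2-Q33;TDP-43 replicate 10 they stood at 0.35 and 0.42.

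Hsph1, an HSP110 protein that resets HSP70 by nucleotide exchange (ENSMUSG00000029657, mm10 chromosome 5, 149614287 to 149636376, minus strand), measured 208, 248 and 246 CPM in NTg pools against 250, 437 and 279 CPM in mutant pools. The groups did not overlap, but ATXN2-Q33;TDP-43 replicate 8 exceeded the highest NTg library by little and replicate 10 was far above the rest. The log2 fold change was 0.46 (SE 0.21, 95% interval from -0.03 to 0.95, edgeR adjusted p = 0.9996), and 0.18 without replicate 10. Hsp90aa1, the inducible cytosolic HSP90 (ENSMUSG00000021270, mm10 chromosome 12, 110690605 to 110702728, minus strand), measured 1495, 1373 and 1670 CPM in NTg pools against 1555, 2067 and 1864 CPM in mutant pools. Here the groups overlapped, and the log2 fold change was 0.27 (SE 0.13, 95% interval from -0.02 to 0.57), or 0.18 without replicate 10. Other genes hold 47.5% of its 50-base windows, most of them in the gene model Gm12346.

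Bag3, a cochaperone that links HSP70 to autophagy, had a small difference on a tight spread: 138, 134 and 129 CPM in NTg pools against 140, 167 and 143 CPM in mutant pools. The groups did not overlap, although the highest NTg and the lowest mutant library lay close together, and the log2 fold change was 0.16 (SE 0.09, 95% interval from -0.05 to 0.38), or 0.08 without ATXN2-Q33;TDP-43 replicate 10. The J-domain proteins of the class overlapped between groups, with log2 fold changes of 0.16 for Dnajb1, 0.13 for Dnajb4 and 0.30 for Dnaja4. Of the Dnaja4 windows, searched on either strand, 42.7% also occur in its neighbour Wdr61. On the same strand 0% of the Dnaja4 exon bases are shared with another gene, and the counts were made by strand. Chordc1, an HSP90 cochaperone, was nearest to 0 of the inducible genes at 0.07. Its promoter window holds the longest run of heat shock units printed above, and a link between promoter letters and fold change was not tested.

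ATXN2-Q33;TDP-43 replicate 10 was the highest library for 9 of the 12 inducible genes, and replicate 12 for the other 3. Cryab, Hspb1 and Hspb8, which are described below beside markers of other cells, were among those 9. In the constitutive class replicate 10 was the highest for 3 of 15 genes and replicate 12 for 6. No NTg library was the highest for any inducible gene, and no mutant library the lowest. Summed over the class, inducible chaperones reached 3810, 3506 and 4819 CPM in NTg pools against 4737, 6033 and 5448 CPM in mutant pools. The sums overlapped, because NTg replicate 11 was above ATXN2-Q33;TDP-43 replicate 8.

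**Figure D3:**
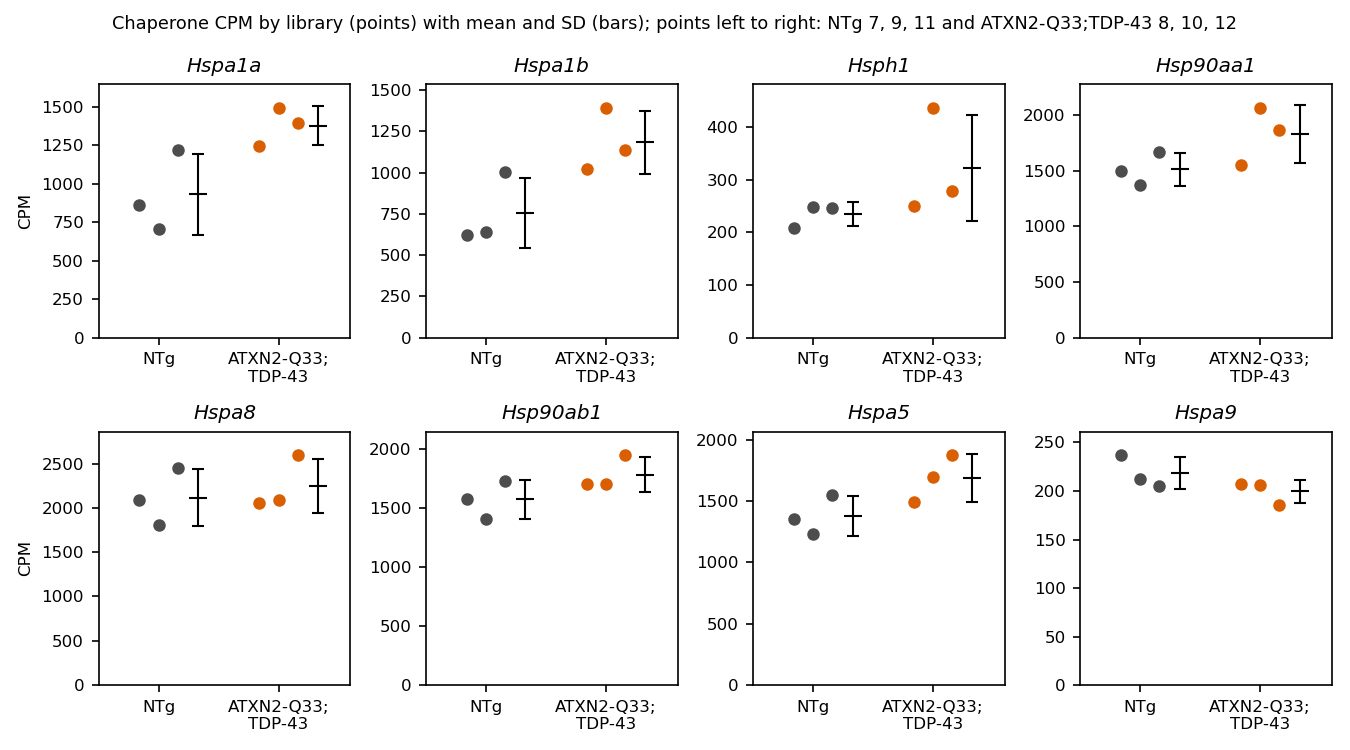
CPM of 8 chaperone genes in each library (points; left to right NTg 7, 9, 11 and ATXN2-Q33;TDP-43 8, 10, 12) with mean and SD (bars). In Hspa1a, Hspa1b and Hsph1 every mutant point lies above every NTg point, and in the other 5 the groups overlap.

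The small heat shock proteins, which hold unfolded proteins without using ATP, were low and peaked in the same libraries as markers of other cells. Cryab (alpha-B crystallin), known as abundant in oligodendrocytes and astrocytes, measured 2.17, 12.3 and 3.00 CPM in NTg pools against 3.12, 17.6 and 2.86 CPM in mutant pools. It was high in NTg replicate 9 and ATXN2-Q33;TDP-43 replicate 10 and similar in the other 4 libraries, and its log2 fold change of 0.43 had an SE of 1.05. Oligodendrocyte markers summed to 182, 1627 and 442 CPM in NTg pools against 350, 1112 and 166 CPM in mutant pools, so both were highest in replicates 9 and 10. Astrocyte markers summed to 94.5, 101 and 114 CPM over NTg replicates 7, 9 and 11 but 101, 145 and 130 CPM over mutant replicates 8, 10 and 12 (5 of 6 above 0, median 0.15). The sum did not peak in NTg replicate 9, but most of it was Slc1a3 (58.2 to 93.5 CPM). Gja1 measured 4.67, 11.1 and 6.85 CPM in NTg pools against 5.71, 26.1 and 8.05 CPM in mutant pools. It and Gfap were highest in replicates 9 and 10 of their groups. Aqp4, Aldh1l1, Slc1a2 and Slc1a3 were not highest in NTg replicate 9. Of the 6 astrocyte markers 1 was at an unadjusted p under 0.05. It was Aqp4, the astrocyte water channel (log2 fold change 1.12, edgeR unadjusted p = 0.0042, adjusted p = 0.9996). Aqp4 had every mutant library above every NTg library, as had 3.27% of all genes tested. All 8 oligodendrocyte markers were tested, 6 with a log2 fold change above 0, none at an unadjusted p under 0.05, and the least abundant ones, Mog and Cldn11, were under 1 CPM in replicates 7, 11 and 12.

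Hspb1 (HSP25 in mice) measured 8.78, 21.9 and 11.6 CPM in NTg pools against 14.5, 30.7 and 17.7 CPM in mutant pools, a log2 fold change of 0.57 (SE 0.42) that was 0.19 without ATXN2-Q33;TDP-43 replicate 10 and 1.03 without NTg replicate 9. Within each group it was again highest in replicates 9 and 10, and the groups overlapped. Endothelial markers showed the same 2 libraries on top, with 90.9, 288 and 126 CPM in NTg pools against 162, 301 and 91.3 CPM in mutant pools (6 of 6 markers tested, 4 above 0). Hspb8, a partner of Bag3, measured 1.61, 2.96 and 2.13 CPM in NTg pools against 2.52, 7.67 and 2.75 CPM in mutant pools, and its log2 fold change of 0.94 (SE 0.48) was 0.23 without replicate 10. Ependymal markers summed to 10.6, 21.1 and 14.1 CPM in NTg pools against 18.03, 63.8 and 30.5 CPM in mutant pools (4 of 6 tested, all 4 above 0, 3 at an unadjusted p under 0.05). The part of these other cells in the small heat shock protein values was not tested. Hspb1 also shares 50.1% of its 50-base windows with other gene models, most with Hsp25-ps1.

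**Figure D4:**
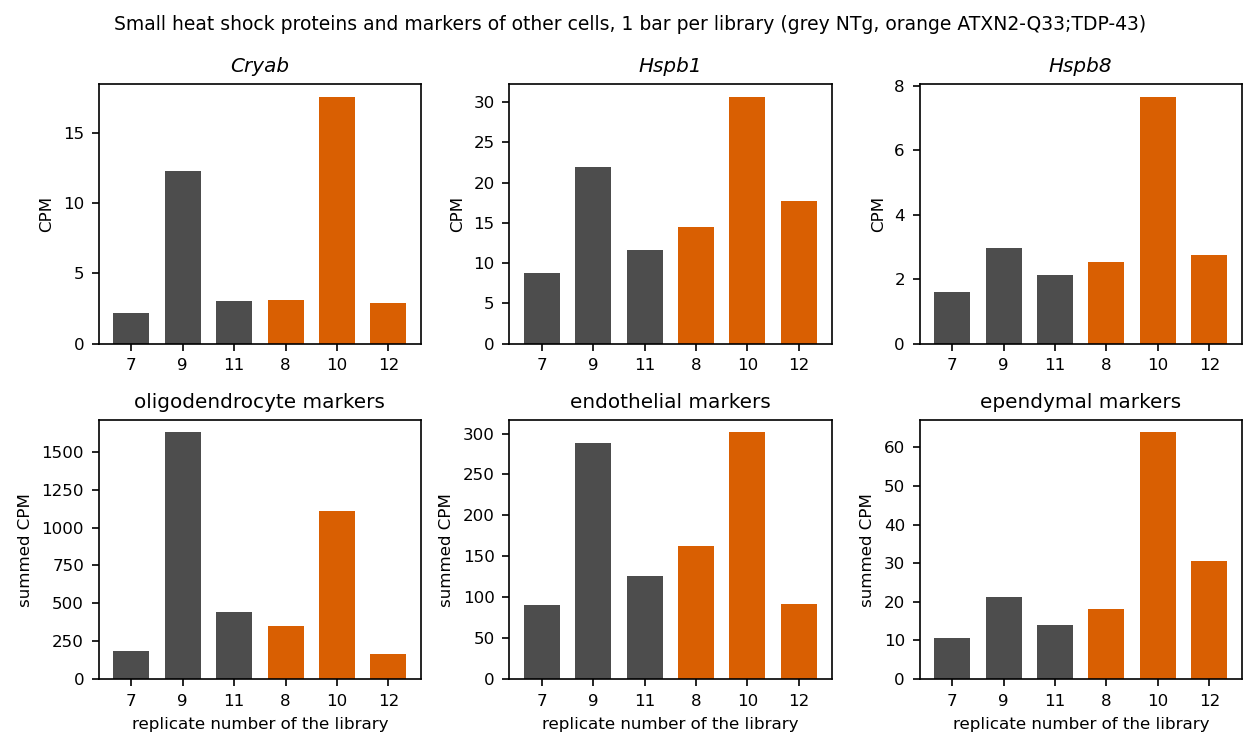
CPM of Cryab, Hspb1 and Hspb8 (upper row) and summed CPM of oligodendrocyte, endothelial and ependymal markers (lower row), 1 bar per library, grey for NTg and orange for ATXN2-Q33;TDP-43. Cryab and the oligodendrocyte sum are both highest in NTg replicate 9 and ATXN2-Q33;TDP-43 replicate 10.

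The genes sorted here as constitutive lay closer to 0 by their median (0.09, against 0.36 in the inducible class). The sorting used no measured heat response, so some of them may also respond to heat. Hspa8, the main constitutive HSP70 (ENSMUSG00000015656, mm10 chromosome 9, 40800984 to 40810087, plus strand), measured 2084, 1806 and 2449 CPM in NTg pools against 2050, 2086 and 2599 CPM in mutant pools. The groups overlapped throughout, and the log2 fold change was 0.09 (SE 0.14, 95% interval from -0.24 to 0.41). Exons of small nucleolar RNA genes (Snord14c, Snord14d and Snord14e) cover 6.09% of its exon bases on the same strand. Hsp90ab1, the constitutive HSP90 (ENSMUSG00000023944, mm10 chromosome 17, 45567775 to 45573271, minus strand), measured 1581, 1406 and 1736 CPM in NTg pools against 1702, 1702 and 1954 CPM in mutant pools. Its log2 fold change was 0.18 (SE 0.11, 95% interval from -0.08 to 0.44), with overlap through NTg replicate 11.

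The largest log2 fold change of the class belonged to its least expressed gene. Hspa4l, an HSP110 relative (ENSMUSG00000025757, mm10 chromosome 3, 40745382 to 40796103, plus strand), measured 10.95, 13.04 and 16.2 CPM in NTg pools against 16.9, 24.6 and 16.8 CPM in mutant pools. The groups did not overlap, yet NTg replicate 11 nearly met the mutants in replicates 8 and 12. The log2 fold change was 0.53 (SE 0.21, 95% interval from 0.07 to 0.996, edgeR unadjusted p = 0.0296, adjusted p = 0.9996), and it was 0.32 when ATXN2-Q33;TDP-43 replicate 10 was left out.

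Dnaja1, a J-domain partner of Hspa8, measured 340, 291 and 415 CPM in NTg pools against 373, 429 and 436 CPM in mutant pools, a log2 fold change of 0.24 (SE 0.13). Dnaja2, of the same family, measured 109, 103 and 93.4 CPM in NTg pools against 89.5, 92.5 and 94.6 CPM in mutant pools, a log2 fold change of -0.14 (SE 0.09). Both overlapped between the groups. The other HSP70 relatives were Hspa2 at 0.09, Hspa4 at -0.05 and Hspa14 at -0.04. The remaining J-domain proteins were Dnajb2 at 0.14, Dnajb5 at 0.03 and Dnajb6 at 0.01. Of the HSP90 and HSP70 cochaperones, Fkbp4 stood at 0.19, Stip1 (which hands clients from HSP70 to HSP90) at 0.09, Ahsa1 (which activates the HSP90 ATPase) at -0.06 and Bag1 (a nucleotide exchange factor) at -0.09.

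Ratios within a library set inducible against constitutive members of 1 family, per length. Hspa1a plus Hspa1b over Hspa8 was 1.06, 1.12 and 1.35 in NTg and 1.64, 2.06 and 1.45 in the mutants, that is 1.17 ± 0.15 and 1.72 ± 0.31 (SD, n = 3 each). The groups did not overlap. Hsph1 over Hspa4 was 0.71, 0.95 and 0.94 in NTg and 1.04, 1.58 and 1.04 in the mutants, also without overlap. For the HSP90 pair, Hsp90aa1 over Hsp90ab1, the ratios were 0.72, 0.74 and 0.73 in NTg and 0.70, 0.93 and 0.73 in the mutants. There the groups overlapped, and ATXN2-Q33;TDP-43 replicate 10 alone stood apart. A ratio shows unequal levels and not which gene differed, and these ratios were not tested. The levels were not corrected for sequence shared with other genes, so the size of a ratio is uncertain.

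Of the endoplasmic reticulum chaperones, Hspa5 had the smallest p. Hspa5 (BiP, the HSP70 of this compartment; ENSMUSG00000026864, mm10 chromosome 2, 34771970 to 34777547) measured 1350, 1234 and 1551 CPM in NTg pools against 1490, 1692 and 1877 CPM in mutant pools. NTg replicate 11 was above ATXN2-Q33;TDP-43 replicate 8, so the groups overlapped. The means were 1378 ± 160 and 1686 ± 194 CPM (SD, n = 3 each), which gave a log2 fold change of 0.29 (SE 0.13, 95% interval from 0.01 to 0.57, edgeR unadjusted p = 0.0455, adjusted p = 0.9996). With neighbouring sample codes (7 with 8, 9 with 10, 11 with 12) as a block, pairs that the labels do not name, Hspa5 was the 1 gene of the 39 past the threshold (log2 fold change 0.29, edgeR adjusted p = 0.0381), where 0.437% of all genes passed (0.314% with higher values in the mutants). Under that block 13 of the 39 were at an unadjusted p under 0.05, against 8.62% of all genes; 11 of these had higher values in the mutants, against 4.9% of all genes, and 2, Dnajb9 and Hspa9, had lower ones. With the combined alignments as a covariate its log2 fold change was 0.12. Over Hspa8, per length, it stood at 0.66, 0.70 and 0.64 in NTg and 0.74, 0.83 and 0.73 in the mutants, without overlap.

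Hsp90b1 (GRP94, ENSMUSG00000020048, mm10 chromosome 10, 86690209 to 86705509) carries the same promoter element as Hspa5 but overlapped widely between the groups, with 896, 809 and 1154 CPM in NTg pools against 980, 924 and 1307 CPM in mutant pools. Its log2 fold change was 0.17 (SE 0.17). Dnajb9, a J-domain cochaperone of BiP, measured 163, 115 and 154 CPM in NTg pools against 121, 102 and 159 CPM in mutant pools, a log2 fold change of -0.17 (SE 0.19). Replicates 9 and 10 were the lowest of their groups. The other 3 lay near 0: Dnajb11 at 0.07, Hspa13 at 0.04 and Dnajc3 at 0.03.

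Mitochondrial chaperones summed to 381 ± 11.5 CPM over the NTg pools and 381 ± 24.5 CPM over the mutant pools (SD, n = 3). Hspa9 (mortalin, the mitochondrial HSP70) measured 237, 213 and 205 CPM in NTg pools against 207, 206 and 186 CPM in mutant pools, a log2 fold change of -0.13 (SE 0.09, 95% interval from -0.34 to 0.08). Hspd1 (HSP60) measured 82.4, 84.3 and 89.6 CPM in NTg pools against 83.5, 121 and 95.3 CPM in mutant pools, a log2 fold change of 0.23 (SE 0.13) that was 0.06 without ATXN2-Q33;TDP-43 replicate 10. Its cochaperonin Hspe1, which lies next to it on chromosome 1 in the opposite direction, measured 32.6, 37.7 and 49.1 CPM in NTg pools against 39.6, 45.4 and 47.2 CPM in mutant pools, a log2 fold change of 0.14 (SE 0.15). All overlapped between the groups, and Hspd1 over Hspe1 per length ran from 1.02 to 1.41 in NTg and from 1.13 to 1.49 in the mutants. Trap1, the mitochondrial HSP90, stood at 0.03. Hspd1 shares 42.1% of its 50-base windows with other genes, mostly pseudogenes of its own.

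Hsf1, the main heat shock transcription factor, measured 50.3, 48.9 and 40.8 CPM in NTg pools against 47.5, 49.7 and 42.9 CPM in mutant pools, a log2 fold change of 0.00 (SE 0.11, 95% interval from -0.25 to 0.25). HSF1 is controlled mostly at the protein level, which these data do not measure. Hsf2, a related factor, measured 14.01, 16.7 and 15.7 CPM in NTg pools against 20.6, 18.7 and 15.3 CPM in mutant pools, a log2 fold change of 0.23 (SE 0.16). Both overlapped between the groups.

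Library by library, the classes differed in their levels. Relative to the NTg mean, the median log2 CPM of the inducible class was -0.12, -0.09 and 0.11 in NTg and 0.12, 0.59 and 0.30 in the mutants. The constitutive class stood at -0.01, -0.11 and 0.11 in NTg and -0.02, -0.01 and 0.15 in the mutants. The endoplasmic reticulum class stood at 0.00, -0.12 and 0.14 in NTg and 0.00, 0.00 and 0.24 in the mutants. The inducible class was thus the highest of the 3 in each mutant library, and by the widest margin in replicate 10. Immediate early genes, which enzymatic or mechanical cell isolation is known to induce, stood at 0.01, -0.24 and 0.20 in NTg and 0.10, -0.06 and 0.29 in the mutants. They were below 0 in ATXN2-Q33;TDP-43 replicate 10 (-0.06) and lower still in NTg replicate 9 (-0.24). Of the 19 immediate early genes 14 had a log2 fold change above 0 (median 0.11) and none was at an unadjusted p under 0.05. Only Zfp36 (0.18) had every mutant library above every NTg library, against 3.27% of all genes tested. The part of the immediate early genes in the chaperone values was not tested.

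**Figure D5:**
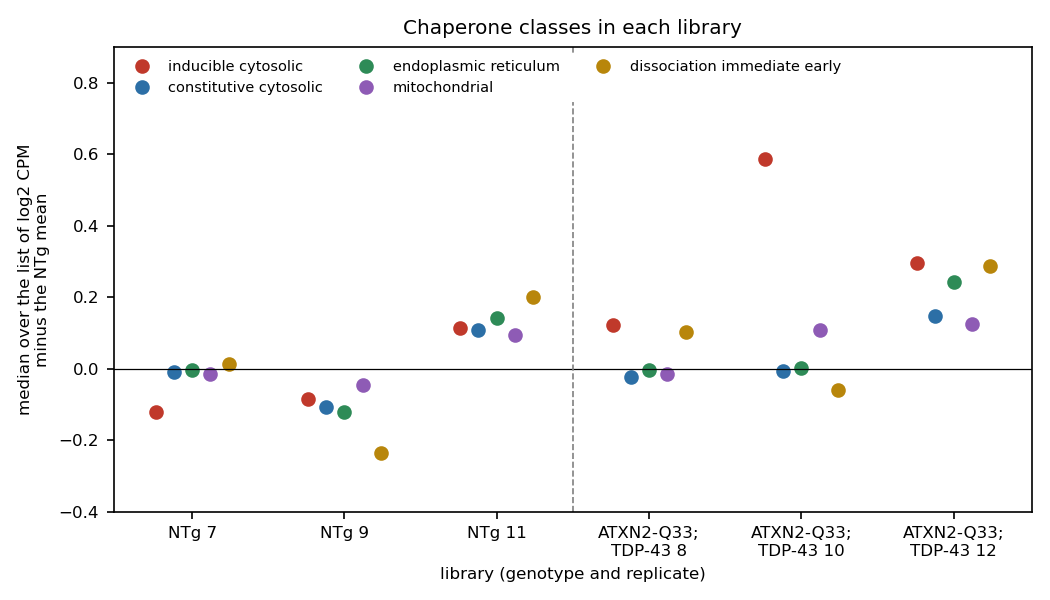
Median over the genes of each class of log2 CPM minus the mean of the NTg libraries, in each library, with immediate early genes for comparison. The inducible class, which includes Cryab, Hspb1 and Hspb8, reaches 0.59 in ATXN2-Q33;TDP-43 replicate 10, where the constitutive and endoplasmic reticulum classes stand near 0.

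Other chaperone genes outside the 39 differed by list. Of 19 further cytosolic cochaperones 11 had a log2 fold change above 0 (median 0.03); the smallest p-values were those of Stub1 (-0.20, SE 0.11), the ubiquitin ligase CHIP, and Bag4 (0.32, SE 0.24). The chaperonin TRiC, which folds actin and tubulin, had 2 of 8 subunits above 0 (median -0.02), led by Cct3 (-0.10) and Cct8 (-0.11). Prefoldin had 2 of 6 above 0 (median -0.04), with Pfdn2 at 0.14 and Pfdn5 at -0.08. Of the other endoplasmic reticulum folding genes 12 of 13 were above 0 (median 0.11), led by Hyou1 (0.19, SE 0.11), an HSP110 relative, and Creld2 (0.30, SE 0.21). Other mitochondrial proteostasis genes had 4 of 8 above 0 (median -0.02), with Clpx at 0.26 and Grpel1 at -0.17. Other heat shock factor targets and ubiquitin genes had 5 of 7 above 0 (median 0.16), led by Dedd2 (0.31, SE 0.18) and Mrpl18 (0.30, SE 0.19). In these 6 lists no gene was at an unadjusted p under 0.05. Stub1 and Cct3 had every mutant library below every NTg library, as had 3.58% of all genes tested. No gene of these lists had every mutant library above every NTg library, against 3.27% of all genes.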

How the data were processed

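Raw fragment counts per gene were deposited by the authors; per the file headers they were made with featureCounts 1.6.1, strand setting 2, on GENCODE release M25, and a read with several alignments was not counted. Trim Galore 0.4.1, TopHat2, DESeq2 and the build mm10 are named in the submitters' processing notes. A further 6 columns, of other samples, were not used. Symbols were matched by Ensembl identifier for 55141 of 55401 genes. The filterByExpr filter (minimum count 10) left 16248 genes, and a robust quasi-likelihood model without covariates was fitted in edgeR 4.0.16 (R 4.3.3) after TMM, with Benjamini-Hochberg adjustment over all genes tested and a threshold of 0.05. TMM also scaled the library sizes behind CPM. For exact permutation tests, two-sided, 0.5 was added to CPM before taking log2. Over the 39 genes the median half-width of the 95% interval was 0.30 on the log2 scale. Library pairs differed by more than sampling noise (chi-square per degree of freedom 6.67 to 38.4), so each pool counted as 1 replicate. DESeq2 1.42.0, limma 3.58.1 (voom), other normalizations and filters, the covariate, the block and leaving out libraries were alternatives. Transcript windows of 50 bases came from GENCODE release M21. Named with full values were, per class, the 3 genes with the smallest p and the 2 with the highest mean CPM, with Hspa1a, Hspa1b, Hsf1 and Hsf2; from other lists, the 2 with the smallest p. Bag3, the small heat shock proteins, Mog and Cldn11 were described after their values were seen. The members and lists were chosen with earlier results of these data known. The edgeR step was tested on simulated data. A result on 1 microglial marker is not reported here.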

Additional observations from a re-analysis of the deposited data

How the results depend on the processing

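The count of all genes past the threshold was 0 with edgeR as described, 7 of 16233 with DESeq2, 6 without a filter on low counts, 71 with neighbouring codes as a block (51 higher and 20 lower in the mutants), 1 with NTg replicate 9 and ATXN2-Q33;TDP-43 replicate 10 both left out, and 0 to 2 with each library left out in turn. Among the 39 chaperone genes it was 1 (Hspa5) under that block and 0 otherwise, where the values at an unadjusted p under 0.05 numbered 13 under the block (11 higher, 2 lower, against 8.62% of all genes). The groups share no replicate number in the labels, so no labelled pairing could be fitted and the block is one of neighbouring codes. Of 15 library pairs those 3 had the lowest chi-square per degree of freedom (11 with 12 at 6.67, 7 with 8 at 9.21, 9 with 10 at 11.87). NTg replicates 7 and 9, which the block does not pair, were nearly level with the last of them at 11.88. The order is a hint from the data and not from the design. Class medians with each library left out ran from 0.21 to 0.52 (inducible), -0.015 to 0.15 (constitutive), -0.0024 to 0.12 (endoplasmic reticulum), 0.028 to 0.18 (mitochondrial), 0.065 to 0.20 (transcription factors) and 0.056 to 0.17 (all 39). With the combined alignments as a covariate the constitutive median was -0.0076, the endoplasmic reticulum -0.070, the mitochondrial -0.064, that of the transcription factors 0.21 and that of all 39 genes -0.00032. In that fit the sign turned for Dnajb1 (-0.16), Chordc1 (-0.19), Hspa8 (-0.13), Dnaja1 (-0.0076), Dnajb5 (-0.00032), Dnajb6 (-0.0073), Stip1 (-0.047), Fkbp4 (-0.12), Hsp90b1 (-0.11), Dnajb11 (-0.10), Dnajc3 (-0.038), Hspe1 (-0.16) and Trap1 (-0.088). With replicates 9 and 10 both left out, a setting chosen after seeing the data, it turned for Hspa2 (-0.097), Dnajb5 (-0.0054), Dnajb6 (-0.028), Dnajc3 (-0.038), Trap1 (-0.023) and Hsf1 (-0.0046). Without a filter it turned for Hsf1 (-0.0026). The cause was not tested. With 1 library left out in turn, the log2 fold change changed sign within these ranges: Chordc1 -0.041 to 0.24, Hspa4 -0.095 to 0.0065, Dnajb5 -0.058 to 0.099, Ahsa1 -0.18 to 0.013, Hsf1 -0.085 to 0.062, Dnajb1 -0.038 to 0.37, Hspa8 -0.030 to 0.21, Dnajb6 -0.065 to 0.077, Dnajc3 -0.011 to 0.11, Trap1 -0.042 to 0.098, Cryab -0.97 to 1.58, Hspa2 -0.020 to 0.26, Hspa14 -0.094 to 0.052, Stip1 -0.0026 to 0.17, Hsp90b1 -0.0010 to 0.33 and Dnajb11 -0.078 to 0.17. Hspa1a and Hspa1b kept a value above 0 in all 16 alternatives run for them as separate genes, and the normalizations moved the median of all genes by less than 0.1.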
